A study of Mus musculus with 2 samples.

Results

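Nuclear genes of mitochondrial complex I and its assembly were taken as all genes of the deposited table whose symbol starts with *Nduf*, 45 of 18467 genes. They comprise 7 core subunits, 29 accessory subunits, 7 assembly factors, and 2 genes that keep the symbol for historical reasons: *Ndufa4*, whose product is now counted as a subunit of complex IV (cytochrome c oxidase), and its relative *Ndufa4l2*. The mitochondrially encoded subunits and *Ndufb1* were not analysed here. *Ndufaf8* was listed under an older name, outside the rule.

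Complex I (NADH:ubiquinone oxidoreductase) is the entry point of electrons from NADH into the mitochondrial respiratory chain. A hydrophilic arm in the matrix oxidises NADH at its tip and passes the electrons along iron-sulfur clusters to ubiquinone, and a membrane arm pumps protons. Core subunits carry out this chemistry, accessory subunits surround and stabilise them, and assembly factors help to build the enzyme without staying in it. The nuclear genes of the enzyme carry the symbol *Nduf*, those of most dedicated assembly factors *Ndufaf*. Growing oocytes depend on mitochondrial respiration, and the mitochondria of the embryo come from the egg.

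Gene expression was measured by RNA sequencing in oocytes of C57BL/6 mice aged 2 weeks, in 1 wild type library and 1 library of the conditional knockout *Gdf9*-Cre;*Kat8* fl/fl, called cKO here. In these mice Cre recombinase is made under the promoter of the oocyte growth factor gene *Gdf9*, and removes loxP-flanked sequence of *Kat8*, which encodes the acetyltransferase of histone H4 lysine 16 also known as MOF. The labels give neither the number of mice or oocytes in a library nor whether the wild type mice carried floxed alleles or Cre. Values are FPKM, sequenced fragments per kilobase of transcript, scaled to library depth. There is no replicate check and no test, since each genotype has 1 library, and effects of genotype and of library cannot be told apart. A gene is called lower or higher by size alone, if at least 1 library has 1 FPKM or more and the log2 ratio of cKO over wild type, on the log2(FPKM + 0.1) scale, is -1 or less, or 1 or more (the 2-fold rule).

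*Kat8* itself had 166 FPKM in wild type and 0.985 FPKM in cKO oocytes. Fragment totals are unknown. Judged from very low genes, 1 fragment counted for 1.24 times the FPKM in cKO that it did in wild type. The peak of these ratios was sought only at 1 or more, so this value cannot tell which library was deeper. The summed FPKM of 10 oocyte markers, such as *Zp3* and *Gdf9*, was 23294 FPKM for wild type and 20212 for cKO. *Dppa3* alone had 10371 and 4524 FPKM; the other 9 summed to 12922 and 15688 FPKM, and the median log2 ratio of all 10 was 0.10. That of 10 granulosa cell markers was 96.9 and 127 FPKM, with *Inha* the most abundant (67.3 and 62.7 FPKM), and that of 10 theca and stroma markers was 2.36 and 12.5 FPKM. Of the 13 granulosa, theca and stroma markers at 1 FPKM or more, 9 were higher by the 2-fold rule. No theca and stroma marker was above 0.689 FPKM in the wild type library. Those counted here thus reached 1 FPKM through the cKO library alone, which favours a higher call. The count of 9 is therefore partly set by the choice of markers by level. The 5 endothelial markers summed to 12.8 and 11.6 FPKM, and the 4 immune markers in the table to 0.741 and 0.722 FPKM. *Ptprc*, which marks leukocytes, and the stromal gene *Lum* were at 0 in the wild type library. *Amh*, a marker of granulosa cells of growing follicles, stood at 0.288 and 0.121 FPKM. The part of these cells in the results below was not tested. In such bulk libraries, fewer cells of a type and less RNA per cell cannot be told apart.

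Complex I genes were lower in the cKO library almost throughout. Of the 45 *Nduf* genes, 41 had a lower FPKM in the cKO library, 15 were lower by the 2-fold rule and 1, *Ndufaf1*, was higher; 29 were neither. Among the 11816 genes of the table that reached 1 FPKM, 5535 had a log2 ratio below 0. By the 2-fold rule, 12.2% of the 11816 genes were lower and 18.2% higher. The median log2 ratio of the *Nduf* genes was -0.92 (quartiles -1.07 and -0.46), against 0.06 for all genes. Their summed FPKM made up 1.69% of the wild type total and 1.17% of the cKO total. All 45 members passed the floor of 1 FPKM, *Ndufaf1* through the cKO library alone, and none was listed at 0.

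The 2-fold rule runs through a dense part of the distribution. *Ndufv1* (log2 ratio -1.01) was the last member inside it and *Ndufb11*, at -0.998, the first outside. A further 7 members lay between -0.9 and -1, namely *Ndufs5*, *Ndufb3*, *Ndufs3*, *Ndufa1*, *Ndufb5*, *Ndufb9* and *Ndufaf4*. Scaled by the median ratio over genes, 18 members were lower by the rule.

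**Figure D1:**
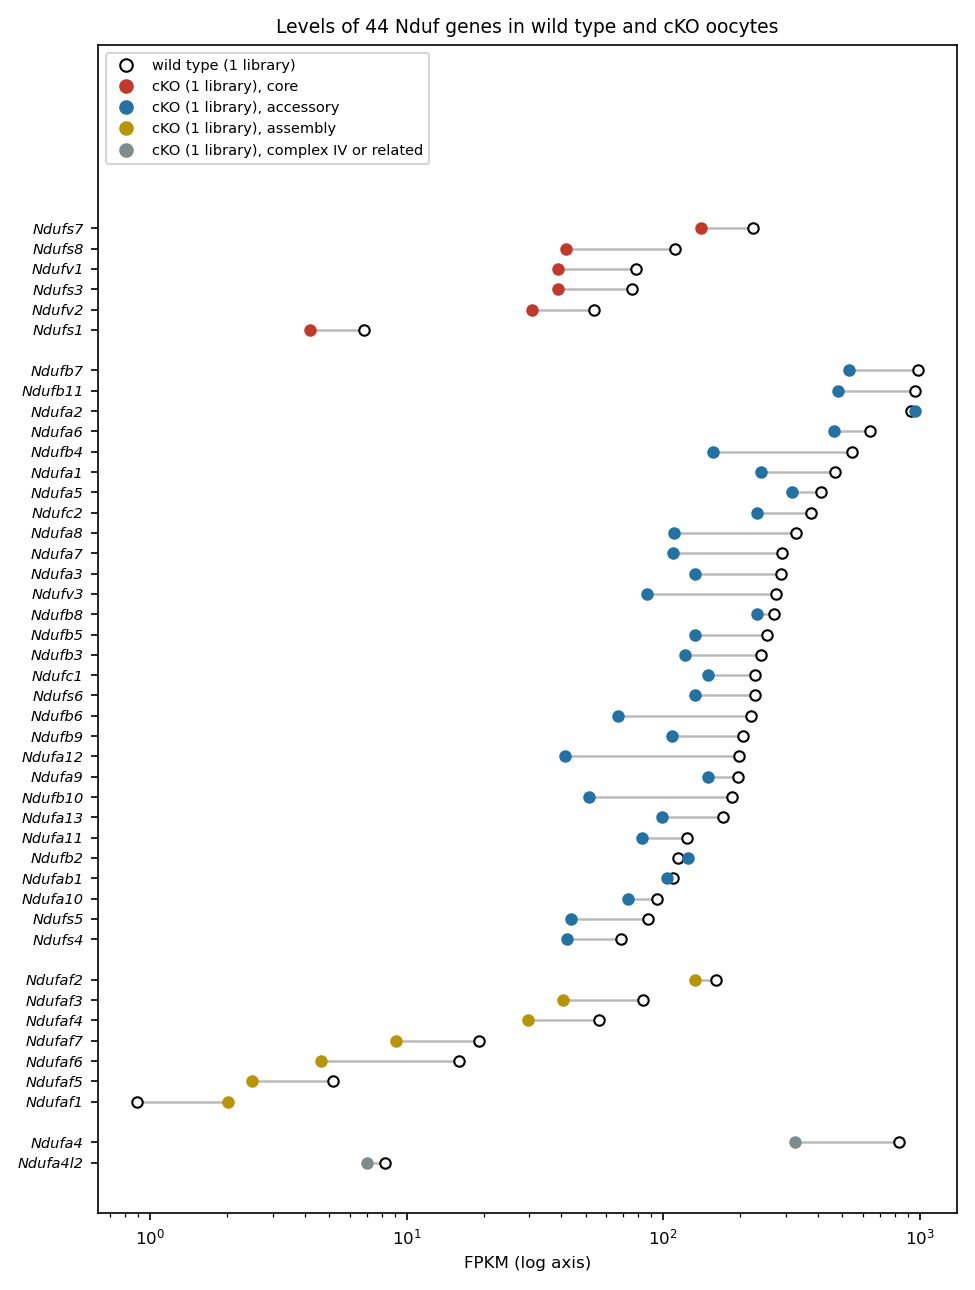
FPKM of 44 Nduf genes (log axis) in the wild type library (open circles) and the cKO library (filled circles), by class and in order of the wild type level. The filled circle lies to the left of the open one for 41 genes, and to the right for Ndufa2, Ndufb2 and Ndufaf1.

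Of the 7 core subunits, 2 were lower by the 2-fold rule (28.6%), with a median log2 ratio of -0.80. The share lower was 12.2% among all genes past 1 FPKM and 28.7% among genes of 610 to 1380 bases. *Ndufv1* binds NADH and the flavin at the tip of the matrix arm, and had 78.5 FPKM in wild type and 38.9 FPKM in cKO oocytes, 2.02-fold lower. Its partner *Ndufv2*, an iron-sulfur protein, had 53.9 and 30.9 FPKM (log2 ratio -0.80). *Ndufs1*, the largest core subunit and a carrier of several iron-sulfur clusters, had 6.80 and 4.19 FPKM (log2 ratio -0.69). It was the least abundant subunit in both libraries, and the next lowest was *Ndufv2*.

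Further along the electron path, *Ndufs8*, which carries iron-sulfur clusters, was the core subunit with the lowest ratio, at 111 and 41.9 FPKM, 2.65-fold lower. It lies on GRCm38 chromosome 19, 3908863 to 3912774, only 94609 bases from *Ndufv1* on the same chromosome, and both were lower by the 2-fold rule. The call of *Ndufv1* is at the edge and was lost with a pseudocount of 1 (-0.99), with library totals without the 50 most abundant genes (-0.81), with FPKM rescaled to equal totals (-0.77) and with the length trend removed (-0.995), but not with the length and GC trend removed (-1.19). *Ndufs3* stood at 75.8 and 38.7 FPKM and *Ndufs7*, which holds the last cluster before ubiquinone, at 224 and 140 FPKM. Both were lower, with log2 ratios of -0.97 and -0.67.

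Accessory subunits made up most of the group, and 27 of 29 had less FPKM in cKO oocytes (median log2 ratio -0.89). By the 2-fold rule 8 were lower, 27.6%, a share close to the 28.7% among genes with transcripts of similar length. *Ndufa12* had the lowest ratio of all members, with 198 FPKM in wild type and 41.6 FPKM in cKO oocytes, a 4.77-fold difference (log2 ratio -2.25). It sits in the matrix arm and takes the place of the assembly factor NDUFAF2 late in assembly. *Ndufaf2* itself, its paralogue, stood at 161 and 134 FPKM (log2 ratio -0.27). The ratio of *Ndufa12* to *Ndufaf2* was thus above 1 in wild type and below 1 in cKO oocytes. For *Ndufaf2*, 65.6% of the exon bases of all its annotated transcripts overlap a long non-coding RNA gene on the other strand (1955 of 2978 bases). The transcript length taken for *Ndufaf2* was only 678 bases, so how far its reads are affected is uncertain.

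Other accessory subunits of the NADH-oxidising tip were lower to different degrees. *Ndufv3* stood at 274 and 86.3 FPKM, 3.18-fold lower. *Ndufs4*, whose loss in mice causes a Leigh-like encephalopathy, stood at 68.6 and 42.1 FPKM, and the zinc-binding subunit gene *Ndufs6* at 227 and 133 FPKM, neither past the 2-fold rule. *Ndufa2*, which has a thioredoxin-like fold, was the exception. It stood at 923 and 957 FPKM (log2 ratio 0.05), and was the most abundant *Nduf* gene of the cKO library; only *Ndufb7* and *Ndufb11* were above it in the wild type. Of its exon bases, 11.5% overlap *Tmco6* on the other strand (5.34 and 7.33 FPKM).

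The quinone-reducing part had the median nearest to 0 of the 4 parts, -0.53 over 6 genes; with the length and GC trend removed it was -0.43, and the proximal membrane part was nearer to 0, at -0.41. *Ndufa9*, of the short-chain dehydrogenase family, stood at 196 and 150 FPKM, and *Ndufa5* at 413 and 319 FPKM, with log2 ratios of -0.39 and -0.37. The other 3 subunits were not assigned to a part. Of these, *Ndufa6*, a LYR-motif protein that binds the acyl carrier protein, stood at 638 and 465 FPKM. The gene of that acyl carrier protein, *Ndufab1*, which also serves mitochondrial fatty acid and lipoate synthesis, stood at 109 and 103 FPKM (log2 ratio -0.08). *Ndufa7*, by contrast, stood at 291 and 109 FPKM, 2.67-fold lower.

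In the membrane arm, 18 of 19 subunits were lower in the cKO library, as were 41 of all 45 members. The part next to the matrix arm had a median log2 ratio of -0.79 over 9 genes. *Ndufa8* stood at 329.8 and 111 FPKM, 2.98-fold lower, and *Ndufa3* at 289 and 132.5 FPKM, 2.18-fold lower; these were the only ones past the 2-fold rule in that part. *Ndufa1*, an X-linked subunit gene, stood at 469 and 241 FPKM (log2 ratio -0.96). *Ndufa13* (GRIM-19), *Ndufc1*, *Ndufc2* and *Ndufa11* had log2 ratios from -0.79 to -0.58. *Ndufa10*, of a nucleoside kinase-like family, was the least different of this part, at 94.5 and 72.8 FPKM.

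*Ndufs5* belongs to the same part and needs its copy beside it. The gene stood at 87.2 and 43.9 FPKM, 1.99-fold lower. A processed pseudogene, *Ndufs5-ps* (listed as *BC002163*), matches 60.8% of its transcript at 99.4% identity and stood far above it, at 604 and 281 FPKM. How the authors divided reads between such copies is not stated, so the level of *Ndufs5* is uncertain. The sum of both was 692 and 325 FPKM, 2.13-fold lower. Gene and copy may hold the same reads, so their shared direction is no independent check of *Ndufs5*.

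The distal end of the membrane arm, built from the *Ndufb* subunits, had the lowest median of the 4 parts, -0.96 over 10 genes. With the length trend removed the NADH-oxidising tip was lower, at -0.78 against -0.70, and with GC content also removed the distal end was again, at -0.64 against -0.53. *Ndufb10* stood at 185 and 51.6 FPKM, 3.59-fold lower, *Ndufb4* at 544 and 157 FPKM, 3.47-fold lower, and *Ndufb6* at 219.5 and 66.4 FPKM, 3.30-fold lower. A cluster of 5 further genes, *Ndufb3*, *Ndufb5*, *Ndufb7*, *Ndufb9* and the X-linked *Ndufb11*, lay close together at log2 ratios from -0.998 to -0.89. Of these, *Ndufb7* and *Ndufb11* were the most abundant members of the wild type library, at 985 and 962 FPKM, and stood at 533 and 482 FPKM in the cKO library. *Ndufb8*, at 270 and 233 FPKM, and *Ndufb2*, at 114 and 125 FPKM, differed little, so the distal arm held both some of the lowest ratios and 1 of the few above 0.

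*Ndufb5* shares 616 exon bases, 12.3% of its own, with *Mrpl47* on the other strand, a mitochondrial ribosomal protein gene that was also lower (153 and 65.3 FPKM). Whether counting used strand is not given, so reads of the overlap cannot be assigned. The same holds for *Ndufb6*, 39.0% of whose exon bases overlap *Smim27* (12.7 and 15.9 FPKM). Here the partner was far less abundant than the subunit gene. *Ndufa13*, *Ndufb9* and *Ndufb11* also share 10% or more of their exon bases with another gene. *Ndufa11*, *Ndufb2*, *Ndufb7*, *Ndufb11*, *Ndufs3* and *Ndufs6* have a processed pseudogene that is 90% or more identical over 50% or more of the transcript, so their levels are uncertain. Of the 32 members with neither limit, 14 were lower by the 2-fold rule, with a median log2 ratio of -0.94.

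A group that cuts across the membrane arm is formed by the 4 subunits with paired cysteines on the intermembrane space side, which are imported by the MIA40 route. *Ndufb10* and *Ndufa8* were among the lowest of all members, at log2 ratios of -1.84 and -1.58. *Ndufs5* and *Ndufb7*, at -0.99 and -0.89, were not past the 2-fold rule. All 4 thus had less FPKM in the cKO library, as did 41 of all 45 members.

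**Figure D2:**
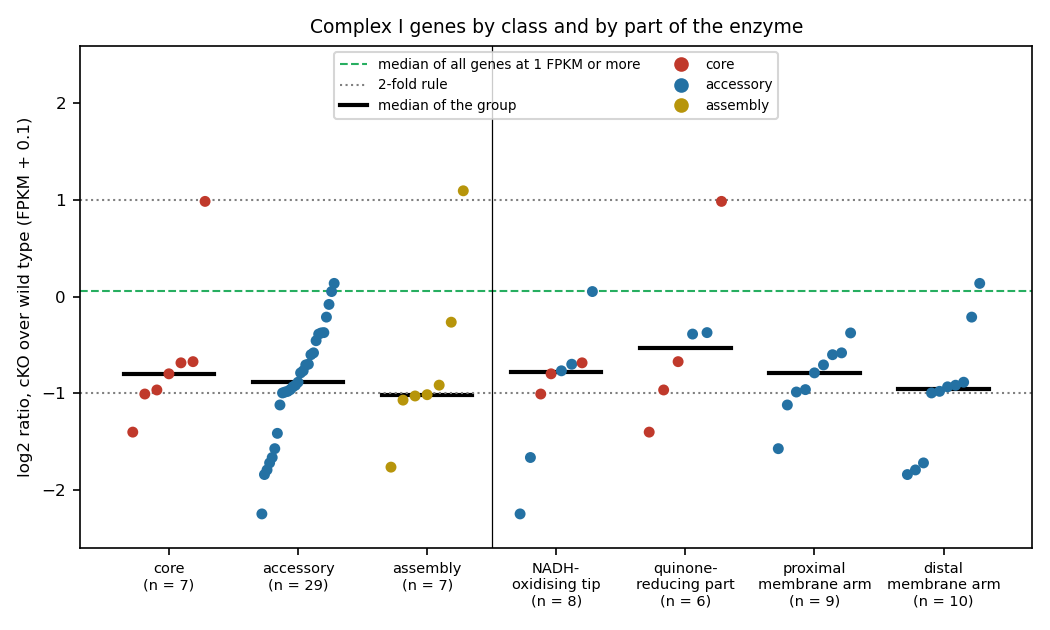
Log2 ratio of cKO over wild type FPKM of complex I genes, by class (left) and by part of the enzyme (right; the 36 subunits without Ndufa6, Ndufa7 and Ndufab1, which were not assigned to a part). Points are genes, bars group medians, the dashed line the median of all genes (0.06) and the dotted lines the 2-fold rule; the medians of the classes lie between -0.80 and -1.02.

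Assembly factor genes had a lower median level than the subunits, although the ranges overlapped. By the 2-fold rule 4 of 7 were lower (57.1%). The share lower was 12.2% among all genes past 1 FPKM and 28.7% among genes of 610 to 1380 bases. Of the 4, *Ndufaf5*, *Ndufaf6* and *Ndufaf7* were among the least abundant members, and their depth in fragments is unknown. The median log2 ratio of the 7 assembly factor genes was -1.02. Their median FPKM was 19.2 in wild type and 9.06 in cKO oocytes, against 222 and 116 FPKM for the 36 subunits. *Ndufaf6*, which acts on the early membrane part, stood at 16.1 and 4.65 FPKM, 3.45-fold lower. *Ndufaf7*, an arginine methyltransferase that acts early in assembly, stood at 19.2 and 9.06 FPKM, 2.12-fold lower.

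*Ndufaf3* and *Ndufaf4*, whose products act together on the quinone-reducing part, stood at 83.2 and 40.7 FPKM and at 56.1 and 29.7 FPKM. The former was just past the 2-fold rule (log2 ratio -1.03), the latter just short of it, at -0.92. *Ndufaf5*, which hydroxylates an arginine of NDUFS7, stood at 5.14 and 2.49 FPKM (log2 ratio -1.02). Its partner *Ndufaf8* stood at 152 and 129 FPKM and differed little.

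*Ndufaf1* was the only member higher by the 2-fold rule, with 0.892 FPKM in wild type and 2.02 FPKM in cKO oocytes (log2 ratio 1.10). It is a part of the assembly complex of the membrane arm that also holds ECSIT, ACAD9 and TMEM126B. It was the least abundant member in both libraries, and its depth in fragments is unknown. *Ndufaf1* reached 1 FPKM through the cKO library alone, which favours a higher call. Of its partners, *Ecsit* stood at 13.3 and 5.92 FPKM and was lower, *Tmem126b* stood at 14.6 and 8.54 FPKM, and *Acad9* stood at 1.46 and 1.85 FPKM. The members of this assembly complex thus went both ways. Those with more FPKM in the cKO library, *Ndufaf1* and *Acad9*, were near the floor in both libraries.

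Most complex I assembly factors without the *Nduf* symbol had less FPKM in the cKO library too. Of 13 listed genes 12 were in the table and 11 past 1 FPKM, of which 9 had log2 ratios below 0; 3 were lower and 0 higher by the 2-fold rule, with a median log2 ratio of -0.78 (-0.75 with the trend on transcript length and GC content removed). *Nubpl*, which delivers iron-sulfur clusters to complex I, stood at 36.7 and 9.32 FPKM, and *Dmac1*, listed as *Tmem261* and needed for the distal membrane arm, at 111 and 39.9 FPKM. *Tmem70*, which serves complexes I and V, stood at 55.4 and 99.9 FPKM, the highest ratio of the list.

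The order of abundance among the members was largely kept. Of the 10 most abundant members of the wild type library, 9 were among the 10 most abundant of the cKO library. Across the 45 genes the log2 levels of both libraries had a Pearson correlation of 0.95 and a Spearman correlation of 0.88; genes of the same libraries are no independent replicates. Subunit levels spread over 145-fold in wild type and 228-fold in cKO oocytes, although the enzyme holds most subunits once. The lower end of this spread was *Ndufs1* alone in both libraries (6.80 and 4.19 FPKM). The next lowest subunit, *Ndufv2*, was far above it, at 53.9 and 30.9 FPKM.

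The 2 members of the complex IV family differed from each other. *Ndufa4*, the complex IV subunit, had 827 and 328 FPKM, 2.52-fold lower (log2 ratio -1.34, and -0.59 with the length and GC trend removed). *Ndufa4l2*, a gene known to be induced by hypoxia through HIF1A, stood at 8.23 and 7.002 FPKM (log2 ratio -0.23).

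Transcripts of complex I genes are short, and in these libraries short transcripts were lower in the cKO library in general. The members' transcripts had a median length of 882 bases (315 to 3632), against 2675 bases for all genes, and 28 of them fell in the lowest length decile of genes, up to 1053 bases. There the log2 ratios of all genes had a median of -0.56 and 31.7% were lower by the 2-fold rule, and of the 28 members 10 were lower, a share close to that of all genes. In the highest decile the median was 0.30 and 2.99% were lower. Among 1702 genes with transcripts of 610 to 1380 bases, the range between the quartiles of the members' lengths, 28.7% were lower and 11.7% higher; of the 23 members in that range 10 were lower.

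Members were below the genes of their own length in each of the 3 lowest length deciles. In the lowest decile the median of the 28 members was -0.97 against -0.56 for all genes. In the next, from 1054 to 1494 bases, it was -0.80 for 9 members against -0.25. In the one after it, up to 1870 bases, it was -0.86 for 4 members against -0.08. Among the members themselves the log2 ratio had weak correlations with length (Pearson 0.16, Spearman 0.07, 45 genes), and over 11397 genes they were 0.19 and 0.23.

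With the trend on transcript length and GC content over all genes removed, the median of the *Nduf* genes was -0.52, against -0.08 for all genes. Among the 1702 genes of 610 to 1380 bases it was -0.20 (-0.44 before removal), a nearer comparison for these short transcripts. Of the 45 genes 37 were below 0, as were 6149 of the 11397 genes in the fit. The medians were then -0.75 for the core subunits, -0.41 for the accessory subunits and -0.86 for the assembly factors, whose transcripts are longer. *Ndufa3*, *Ndufa4*, *Ndufa7*, *Ndufaf5* and *Ndufaf7* were then no longer past the 2-fold rule, with values from -0.90 to -0.52. *Ndufa13* moved past it, at -1.18, which left 11 members lower. *Ndufa12*, *Ndufv3*, *Ndufb10*, *Ndufb4* and *Ndufaf6* had the lowest values, from -1.82 to -1.41. *Ndufaf1* stood at 1.47.

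**Figure D3:**
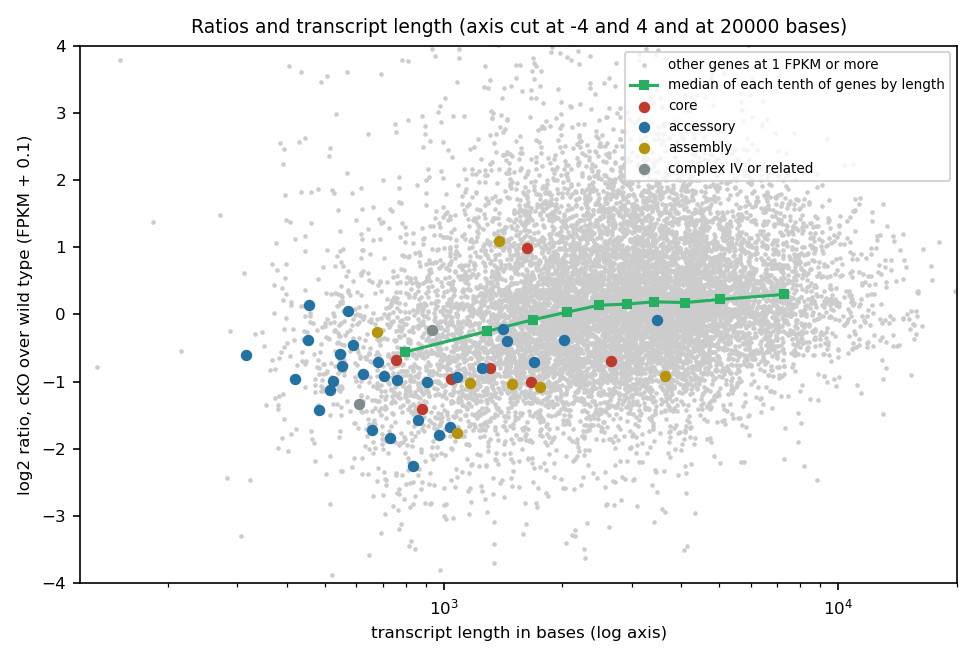
Log2 ratio of cKO over wild type FPKM against transcript length (log axis) for genes at 1 FPKM or more (grey) and the Nduf genes (coloured by class). Squares are the medians of all genes by length decile, from -0.56 in the shortest to 0.30 in the longest; most coloured points lie below that line.

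Scaling multiplies all genes of a library by the same factor, so by construction it moved the *Nduf* genes and all genes together. With FPKM rescaled to the same total in both libraries (TPM), the median of all genes moved to 0.30 and that of the *Nduf* genes to -0.67, so that the difference between both medians was -0.98 on either scale. With TPM, 10 members were lower and 2 higher by the 2-fold rule, and *Ndufab1*, *Ndufb8* and *Ndufa4l2* had log2 ratios above 0. Over all genes, 74.4% of those past the rule were then higher, against 59.8% with the deposited FPKM.

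The authors' deposited table of lower genes holds 11 of the 45 members, and the authors' deposited table of higher genes holds 0. Of all 18467 genes, 1.94% and 2.71% are in these lists. These shares are no like background, since only 11816 of those genes reached 1 FPKM, as all members did. The median wild type level was 2.15 FPKM for all genes and 196 FPKM for the members. A share among genes of similar level or length was not computed. The 11 are *Ndufa3*, *Ndufa4*, *Ndufa7*, *Ndufa8*, *Ndufa12*, *Ndufaf3*, *Ndufb4*, *Ndufb6*, *Ndufb10*, *Ndufs8* and *Ndufv3*. In the authors' deposited table, 135 genes at 20 FPKM or more in the wild type had a p-value above 0.99. Their deposited fold changes lay between 0.792 and 0.902 with a median of 0.843, and the FPKM totals of the libraries had a ratio of 0.844. The p-values near 1 in the authors' deposited table thus centre on that ratio and not on 1, and they compare reads of these libraries, not genotypes. *Ndufa2*, with a fold change of 1.04 in the authors' deposited table, has an FDR of 0.000236, whereas *Ndufaf2*, at 0.832, has one of 1 in the authors' deposited table.

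The complex I subunits had the lowest median of the respiratory complexes, but the lists compared were unlike. The 36 complex I subunits had a median log2 ratio of -0.84, with 10 lower and 0 higher by the 2-fold rule. Complex II had one of -0.22 (6 genes, 0 past the rule), complex III -0.21 (14 genes, 3 lower, 2 higher), complex IV -0.23 (25 genes, 2 lower, 1 higher) and complex V, the ATP synthase, -0.43 (20 genes, 5 lower, 0 higher); these lists include assembly factors, and that of complex IV leaves out *Ndufa4* (lower) and *Ndufa4l2*, which are counted among the *Nduf* genes.

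Among the same unlike lists, the complex I subunits also had the lowest median when length and GC content were taken into account. With that trend removed, the complex I subunits had a median of -0.50, complex II of -0.21, complex III of 0.13, complex IV of 0.03 and complex V of -0.08. The 73 mitochondrial ribosomal protein genes, the second large set of short mitochondrial transcripts, had medians of -0.67 and, with the trend removed, -0.44, with 25 lower and 2 higher. The 78 cytosolic ribosomal protein genes, with a median length of 785.5 bases, had medians of -0.32 and 0.04. The differences between lists were not tested.

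**Figure D4:**
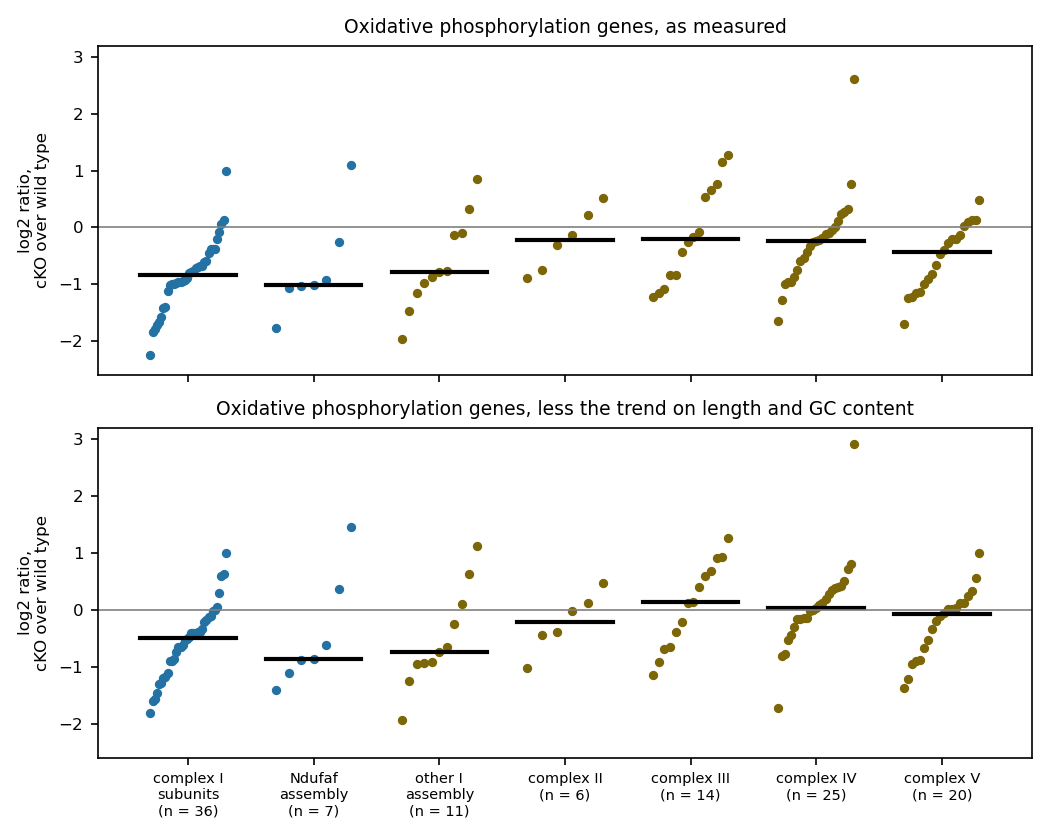
Log2 ratio of cKO over wild type FPKM for genes at 1 FPKM or more of each respiratory complex, as measured (top) and less the trend on transcript length and GC content over all genes (bottom). Points are genes and bars medians; in the bottom panel the bars of complexes III, IV and V lie between -0.08 and 0.13 and those of the complex I subunits and Ndufaf assembly factors at -0.50 and -0.86.

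The members are scattered over 16 chromosomes, and promoter sequences from RefSeq (GRCm38.p6) were found for 39 of the 45. Shown are the 250 bases before the RefSeq start of 2 members with a match to the NRF1 motif (NRF1 is known to bind promoters of respiratory chain genes) and of *Ndufaf1*, the 1 member higher by the 2-fold rule; windows that overlap an annotated exon were not shown. *Ndufb6* was lower by the 2-fold rule and *Ndufaf4* was not. Capitals mark matches on either strand to GCGCATG (part of the NRF1 motif), CCGGAAG (ETS factors), AAGATGG (YY1) or GGGCGG (GC box). The window of *Ndufb6* lies at chr4:40279422-40279671 on the minus strand, that of *Ndufaf4* at chr4:24897833-24898082 on the plus strand. That of *Ndufaf1* lies at chr2:119662835-119663084 on the minus strand. The NRF1 letters begin 77 bases before the start of *Ndufb6*, and 113 and 110 bases before that of *Ndufaf4*, where the 2 matches overlap on opposite strands. The ETS letters of *Ndufaf1* begin 18 bases before its start.
Ndufb6: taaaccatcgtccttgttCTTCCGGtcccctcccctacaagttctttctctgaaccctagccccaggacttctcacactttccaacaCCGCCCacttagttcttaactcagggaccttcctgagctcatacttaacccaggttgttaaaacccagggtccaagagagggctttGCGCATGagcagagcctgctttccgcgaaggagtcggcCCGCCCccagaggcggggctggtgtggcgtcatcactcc
Ndufaf4: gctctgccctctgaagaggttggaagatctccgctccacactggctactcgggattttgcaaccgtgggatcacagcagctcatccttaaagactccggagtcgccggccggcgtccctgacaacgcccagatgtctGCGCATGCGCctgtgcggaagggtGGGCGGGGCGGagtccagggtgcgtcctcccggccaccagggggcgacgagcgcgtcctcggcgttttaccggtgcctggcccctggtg
Ndufaf1: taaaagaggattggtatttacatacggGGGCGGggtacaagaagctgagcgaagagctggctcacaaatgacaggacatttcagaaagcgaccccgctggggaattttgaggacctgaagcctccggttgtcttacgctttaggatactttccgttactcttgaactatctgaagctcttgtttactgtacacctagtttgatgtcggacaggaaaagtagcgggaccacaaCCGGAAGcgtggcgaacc

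In windows from 250 bases before to 50 after the start, the NRF1 letters were in 7 of 39 member promoters (17.9%), against 8.14% of the promoters of 9484 genes past 1 FPKM and 4.41% of all 27025 genes with a sequence. The YY1 letters were in 17.9% of member promoters too, against 8.59% of genes past 1 FPKM and 7.28% of all. The ETS letters were in 12.8%, against 20.2% and 9.93%, and the GC box in 51.3%, against 66.5% and 38.2%.

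The NRF1 letters were in 3 of 14 lower members and 4 of the other 25, and the GC box in 8 of 14 and 12 of 25. The YY1 letters were in 1 of 14 and 6 of 25. CCAAT was in 33.3% of member promoters against 43.9% of genes past 1 FPKM, TGACGT (part of a cAMP response element) in 10.3% against 13.2%, AAGGTCA (oestrogen-related receptors) in 7.69% against 3.98%, and TATAAA in 10.3% against 9.46%. Motifs were searched on both strands and counted separately where they overlapped; a match describes the letters only.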

How the data were processed

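Total RNA was extracted with Trizol and made into libraries with a TruSeq RNA kit, per the labels' protocols. The submitters' processing notes name Bowtie 0.12.2 and the build mm10; quantifier, annotation and test are not given in the sources used here. The authors deposited 3 tables of FPKM values, the fold change (a ratio) of both columns, and p-values with FDR, per the file headers. Values deposited as 1e-05 were read as 0. The KO column was assigned to cKO by its name and the NC column to wild type by elimination. The fold change equalled the quotient of the columns within 0.1% in all 16201 genes above 0 in both. The headers for gene description and locus are swapped. An emptied line of the table was not analysed here.

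Log2 ratios used a pseudocount of 0.1 FPKM and a floor of 1 FPKM in either library. Length and GC content of transcripts were computed from GENCODE M21, a GRCm38 annotation like mm10; gene IDs linked 17349 genes and all 45 members, with medians taken over transcripts with a RefSeq match where any had one. Trends were least-squares fits with cubic terms over 11397 genes, checked on simulated data. That check drew genes at random from all lengths and used a trend shape that the fit can hold. It therefore does not show how well the fit does for mostly short genes or other trend shapes. Near-identical copies were found with blastn 2.17.0 (90% identity or more over 50% or more of a transcript) for 7 members. Another gene shared 10% or more of the exon bases of 7 members, and 13 members in all had either limit. Exon bases were taken over all annotated transcripts, so the share of the transcript that was measured can differ. Python 3.11.15, pandas 2.3.3 and numpy 2.4.6 were used. Depth is unknown, so no counting intervals are given. By rule all members were described, except that 1 is not reported here on its own and enters counts and medians only, and of other lists at most 4 genes, 2 at either end of the log2 ratios, could be named; further genes (*Ecsit*, *Tmem126b*, *Mrpl47*, *Tmco6*, *Smim27*, *Ndufaf8*, *Ndufs5-ps*) were named after their values were seen. Members, lists and motifs were chosen with earlier results of these data known.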

Additional observations from a re-analysis of the deposited data

How the results depend on the processing

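No paired analysis was possible because each genotype has 1 library and no test was made. The median log2 ratio of the *Nduf* genes was below 0 under all 11 alternatives, as were the medians of the core, accessory and assembly classes. With library totals taken without the 50 most abundant genes these 4 medians were -0.72, -0.60, -0.69 and -0.83, with 2 genes higher; with TPM they were -0.67, -0.56, -0.64 and -0.79, with 2 higher. With the length trend removed the *Nduf* and accessory medians were -0.66 and -0.55, with 2 higher; with the length and GC trend removed the *Nduf*, accessory and assembly medians were -0.52, -0.41 and -0.86. With the trend on length, GC content and mean level removed, chosen after seeing the data, the 4 medians were -0.39, -0.67, -0.28 and -0.71, with 9 lower and 2 higher. A pseudocount of 1 gave an assembly median of -0.90, and this or a floor of 5 FPKM left 0 genes higher. Without the 13 members whose reads may be shared, also chosen after seeing the data, the median was -0.94 and 14 were lower. The number lower ranged from 9 to 18 over all alternatives. The length trend and the genotype cannot be told apart with 1 library each; the cause of the trend was not tested, and unknown depth limits what can be said of *Ndufaf1* and other low genes.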
